A study of Mus musculus with 2 samples.

Results

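Acinar cells whose elastase transcripts are mostly Cela1 were found almost wholly in 1 of 2 libraries of embryonic mouse pancreas. They are non-cycling acinar barcodes in which Cela1 had more unique molecular identifiers (UMIs, which count captured transcripts) than Cela2a and Cela3b together. A barcode also needed at least 500 detected genes, at most 10% mitochondrial UMIs, and at least 2% of its UMIs from Ctrb1, Clps, Cpa1, Cela1 and Reg1. It had to hold under 1% from Ins1, Ins2, Gcg and Sst, and at most 2 UMIs from Top2a, Mki67, Cenpf, Birc5 and Ube2c. Cells were thus selected on their own enzyme, hormone and cycling counts, and the values of those genes only describe them. The criteria found 436 cells among 8765 barcodes, of which 5890 passed the filters on genes and mitochondrial share. Of the 436, 428 came from the library labelled knockout and 8 from the library labelled control.

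The study profiled single cells of whole pancreas from C57BL/6 embryos at embryonic day 18.5, with droplet libraries that count the 3′ ends of transcripts. The knockout library came from 1 pancreas that the series names Dpy30∆P, and the control library from 1 control pancreas. The labels give neither the Cre driver nor the stretch of Dpy30 that is missing, and no further allele of either embryo. Knockout cells were suspended in a smaller volume than control cells before the concentration was set. With 1 library a group there is no replicate, so no comparison has a test, and every interval is a 95% interval for counting error only.

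Acinar cells make and store the digestive enzymes that the pancreas releases into the gut, and each enzyme gene is switched on at its own time during development. Their enzyme genes are driven by PTF1, a complex of the bHLH factor Ptf1a, a common bHLH partner such as Tcf12 or Tcf3, and Rbpjl. PTF1 binds a paired site made of an E-box and a TC-box. Dpy30 is a shared subunit of the COMPASS complexes, which methylate lysine 4 of histone H3.

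The knockout library held 33048640 UMIs over 4779 barcodes, and the control library held 25398522 over 3986. Barcodes past the filters had medians of 6652 UMIs in the knockout library and 6856 in the control library. Xist had a level of 656 CPM (UMIs of a gene per 1000000 UMIs of its set) in the Cela1-dominant knockout cells and none in control acinar cells, so sex and genotype cannot be told apart between libraries. Dpy30 itself, as a 3′ tag, stood at 152 CPM in Cela1-dominant knockout cells, 121 CPM in the remaining knockout acinar cells and 81.4 CPM in the remaining control acinar cells. Whether that tag lies in the deleted stretch is not given, so it does not check the label. The libraries shared 27 barcode sequences, of which 4 belonged to Cela1-dominant cells.

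Cela1-dominant cells made up 63.1% of the non-cycling acinar cells of the knockout library (428 of 678, Clopper-Pearson interval 59.4 to 66.8%). In the control library they made up 8.70% (8 of 92, 3.83 to 16.4%). Against all barcodes past the filters, they were 13.1% in the knockout library and 0.304% in the control library. The remaining non-cycling acinar cells, with the other elastase mix, were 7.68% of knockout barcodes past the filters and 3.19% of control ones. A share of barcodes does not tell more cells of 1 kind from fewer of another.

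The Cela1 share of the 3 elastases had 2 peaks in the knockout library. It was under 20% in 181 cells and at least 80% in 341 cells, while only 26 of 678 cells lay between 40 and 60%. The median share was 89.7% in Cela1-dominant cells and 14.1% in the remaining acinar cells. Just inside the threshold, 1 knockout cell had 75 Cela1 UMIs against 71 of the others, and just outside, another had 84 against 86. A median Cela1-dominant cell held 175.5 elastase UMIs, and 14 of the 428 cells held fewer than 10. In the control library 47 of 92 cells lay under 20%, only 4 lay at 80% or more, so the peak at the high end is not seen there.

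**Figure D1:**
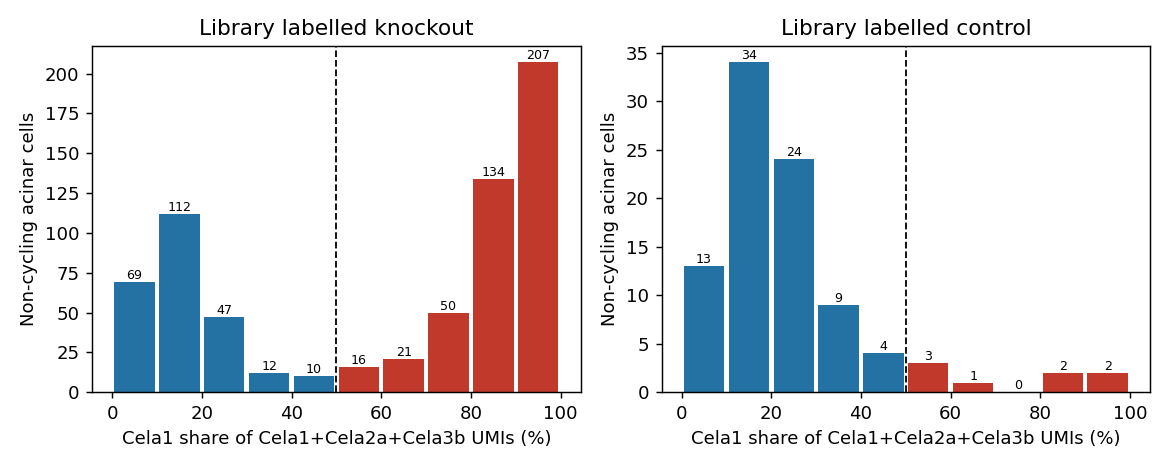
Number of non-cycling acinar cells (vertical axis) by the Cela1 share of their Cela1, Cela2a and Cela3b UMIs in percent (horizontal axis), in the knockout library (left) and the control library (right). Red bars, right of the dashed line at 50%, are Cela1-dominant cells: 207 knockout cells stand at 90% or more, against 2 control cells.

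The cells bore acinar markers, of which Ctrb1, Clps, Cpa1, Cela1 and Reg1 were fixed by the choice of cells. The others, Cpb1, Pnliprp1, Cel, Rbpjl, Ptf1a, Bhlha15 and Gp2, were not used in it. All 12 acinar markers were detected in the Cela1-dominant knockout cells, with a summed level of 87700 CPM against 174362 CPM in the remaining knockout acinar cells. Both sums include the genes fixed by the choice of cells, and to that extent restate it. Of the genes given as markers of these cells, Cela1 and Reg1, which the choice used, and Prss3 were over 2-fold higher than in the remaining knockout acinar cells, and Ptf1a and Rbpjl were higher by under 2-fold. Markers of other cell types were present at unlike levels. The summed level of 5 red cell markers was 5060 CPM in Cela1-dominant cells and 4509 CPM in the remaining knockout acinar cells. Per cell the medians ran the other way, at 1304 CPM in Cela1-dominant cells and 2144 CPM in the remaining ones. The summed level of 5 endothelial markers was 4.41 CPM in Cela1-dominant cells and 3.55 CPM in the remaining knockout acinar cells, and that of 6 myeloid markers was 81.6 CPM in Cela1-dominant cells and 219 CPM in the remaining ones. Of 9 ductal markers only Cftr was at 0 in both sets, and their summed level was 1694 CPM in Cela1-dominant cells and 1302 CPM in the remaining ones. Clu alone gave 1297 CPM of that sum in Cela1-dominant cells and 809 CPM in the remaining ones, whereas Spp1, Krt19 and Krt7 had ratios of 0.565, 0.411 and 0.453. The sum of 10 endocrine markers was 198 CPM in Cela1-dominant cells and 258 CPM in the remaining ones, with none at 0. That sum includes Ins1, Ins2, Gcg and Sst, whose share the choice of cells had capped. One cell gave 80.2% of the Sst UMIs of the Cela1-dominant cells, and 1 remaining cell gave 97.0% of the Lyz2 UMIs of its set.

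Cela1-dominant cells were also the larger libraries. They had a median of 10546.5 UMIs, 2283 genes and 3.15% mitochondrial UMIs, against 6269 UMIs, 1430.5 genes and 2.21% in the remaining knockout acinar cells. Listed digestive enzyme and Reg genes took a median of 11.2% of UMIs in Cela1-dominant cells and 21.1% in the remaining ones. In the 119 Cela1-dominant cells under 5000 UMIs, 5 red cell markers summed to 35434 CPM and 6 mesenchymal markers to 2369 CPM. In the remaining knockout acinar cells under 5000 UMIs the sums were 13492 CPM and 791 CPM. Below 5000 UMIs the per-cell red cell median was 35540 CPM in Cela1-dominant cells and 4627 CPM in the remaining ones. The mesenchymal median was 1660 CPM in Cela1-dominant cells and 274 CPM in the remaining ones. In the 309 deeper Cela1-dominant cells the red cell sum was 3235 CPM and the mesenchymal sum 194 CPM. In the remaining knockout cells from 5000 UMIs the red cell sum was 2767 CPM and the mesenchymal sum 301 CPM. The part of depth and of these other transcripts in the differences below was not tested, beyond the values given for cells from 5000 UMIs.

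Cela1, elastase 1, averaged 18190 CPM in Cela1-dominant knockout cells, 3905 CPM in the remaining knockout acinar cells and 3666 CPM in the remaining control ones. That is 4.66-fold (4.55 to 4.77) over the remaining knockout cells, which is a consequence of the choice of cells. Per cell, Cela1-dominant cells had a median of 15866 CPM and quartiles of 9302 and 24034 CPM, and the remaining knockout cells had a median of 3061 CPM with quartiles of 1940 and 4929 CPM. The quartile ranges did not overlap. The other elastases ran the opposite way. Cela2a stood at 511 CPM in Cela1-dominant cells and 5426 CPM in the remaining knockout cells, 10.6-fold lower, and Cela3b stood at 1545 CPM in Cela1-dominant cells and 15525 CPM in the remaining knockout cells. Cela3a, which the choice of cells did not use, stood at 22.9 CPM in Cela1-dominant cells, 147 CPM in the remaining knockout cells and 2.91 CPM in the remaining control cells. It was thus 6.42-fold lower (5.15 to 8.04) within the knockout library, and both knockout sets stood above the control one.

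The choice of cells set which elastases were high and low, so the makeup is no result, and the summed level only describes the cells. The 4 elastases took 2.03% of UMIs in Cela1-dominant cells and 2.50% in the remaining knockout acinar cells.

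Sequence just before the transcription start is shown for the genes that set the mix apart, Cela1, Reg1 and Prss3 on the high side and Cela2a and Cela3b on the low side. Each is the 250 bases upstream of the RefSeq start in build GRCm38.p6, read on the gene's strand. Capitals mark CANNTG, the E-box core, and TTTCCC or its complement GGGAAA, the TC-box core, each searched on both strands. Cela1 is at chr15:100687921-100688170 and Prss3 at chr6:41377614-41377863, both on the minus strand. Reg1 is at chr6:78425733-78425982 on the plus strand. Cela2a is at chr4:141826006-141826255 and Cela3b at chr4:137430521-137430770, both on the minus strand.
Cela1: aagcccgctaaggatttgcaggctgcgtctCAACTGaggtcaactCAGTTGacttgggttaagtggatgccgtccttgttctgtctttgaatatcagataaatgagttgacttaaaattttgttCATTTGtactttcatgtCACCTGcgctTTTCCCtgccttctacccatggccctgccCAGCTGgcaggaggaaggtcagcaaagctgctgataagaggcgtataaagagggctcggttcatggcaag
Reg1: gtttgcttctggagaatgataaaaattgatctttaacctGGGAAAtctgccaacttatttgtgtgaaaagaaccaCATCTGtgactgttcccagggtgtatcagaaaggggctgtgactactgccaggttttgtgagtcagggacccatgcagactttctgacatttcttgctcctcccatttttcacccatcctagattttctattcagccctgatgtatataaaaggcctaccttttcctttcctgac
Prss3: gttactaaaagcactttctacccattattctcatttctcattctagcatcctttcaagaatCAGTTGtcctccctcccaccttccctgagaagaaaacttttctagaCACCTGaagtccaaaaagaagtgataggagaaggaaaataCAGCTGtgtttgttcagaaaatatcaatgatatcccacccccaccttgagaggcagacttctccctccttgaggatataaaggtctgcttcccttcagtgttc
Cela2a: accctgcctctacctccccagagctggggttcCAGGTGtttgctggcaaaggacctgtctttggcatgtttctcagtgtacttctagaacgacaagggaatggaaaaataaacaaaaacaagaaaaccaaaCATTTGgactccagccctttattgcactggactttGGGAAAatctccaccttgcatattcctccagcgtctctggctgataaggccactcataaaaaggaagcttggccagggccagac
Cela3b: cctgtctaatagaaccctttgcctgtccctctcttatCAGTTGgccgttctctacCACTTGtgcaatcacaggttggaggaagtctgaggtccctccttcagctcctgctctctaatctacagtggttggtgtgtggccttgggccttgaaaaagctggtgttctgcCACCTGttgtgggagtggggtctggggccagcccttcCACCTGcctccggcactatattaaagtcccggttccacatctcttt

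The Cela1 window held 5 E-box cores and 1 TC-box core, with 3 pairs whose starts lay within 30 bases of each other. One of these pairs is CACCTGcgctTTTCCC. Reg1 held 1 E-box core and 1 TC-box core, Prss3 held 3 and 0, Cela2a 2 and 1, and Cela3b 4 and 0. None of these 4 windows had a pair within 30 bases. E-box cores were in 66.2% of 32851 RefSeq promoter windows of this length, TC-box cores in 21.9%, and a pair within 30 bases in 4.76%. Genes with at least 100 UMIs over both sets were compared, of which 7.65% were at least 2-fold higher in Cela1-dominant knockout cells than in the remaining knockout acinar cells and 1.71% at most 0.5-fold. A pair was found for 19 of 296 genes at least 2-fold higher in Cela1-dominant cells (6.42%), 5 of 66 genes at most 0.5-fold (7.58%) and 176 of all 3726 compared genes with a window (4.72%). A match describes letters and not a bound site.

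Reg1, a secreted lectin first found in regenerating islets, separated the sets more than Cela1 did. It averaged 10194 CPM in Cela1-dominant knockout cells, 606 CPM in the remaining knockout acinar cells and 570 CPM in the remaining control ones. The ratio within the knockout library was 16.8 (15.9 to 17.8), with Reg1 a part of the summed enzyme criterion that admits both sets. Per cell the quartiles were 3363 and 12235 CPM in Cela1-dominant cells, and 0 and 709 CPM in the remaining knockout cells, so that the quartile ranges did not overlap. After every cell was thinned to 2000 UMIs, 98.1% of 372 Cela1-dominant cells and 43.7% of 229 remaining knockout cells still held a Reg1 UMI, against 7.29% of 631 mesenchymal barcodes of that library. Without thinning the share was 99.8% in Cela1-dominant cells at a median depth of 10546.5 UMIs, 69.2% in remaining knockout cells at 6269 UMIs and 20.1% in mesenchymal barcodes at 5618 UMIs. Mesenchymal barcodes, the cell type chosen to show the background of free RNA, had 39.2 CPM of Reg1.

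The Reg and trefoil genes, secreted proteins of gut and pancreas some of which are known to rise in injury and regeneration, stood on the same side as Reg1. Of 10 listed genes 7 had at least 100 UMIs over both sets, and all 7, Reg1 among them, were at least 2-fold higher in Cela1-dominant knockout cells, with a median log2 ratio of 4.07. Over all 4787 genes with at least 100 UMIs, 366 were at least 2-fold higher (7.65%), 82 were at most 0.5-fold (1.71%), and the median log2 ratio was 0.28. A gene that is high in the deeper Cela1-dominant set passes that UMI minimum more easily. With a minimum mean level of 20 CPM in its place, an alternative chosen after seeing the data, 207 of 3669 genes were at least 2-fold higher. Reg3g averaged 88.6 CPM in Cela1-dominant cells and 5.08 CPM in the remaining knockout cells, a ratio of 17.5 (9.40 to 36.7), and had no UMI in the remaining control cells. Reg2 had 142 UMIs in Cela1-dominant cells and 2 in the remaining knockout cells, and Tff3 had 177 UMIs in Cela1-dominant cells and 3 in the remaining knockout cells. Both were seen in a minority of the cells: 17.1% of Cela1-dominant cells held a Reg2 UMI and 26.6% a Tff3 UMI. Tff2, trefoil factor 2, was the broader of the trefoil genes, at 836 CPM in Cela1-dominant cells, 192 CPM in the remaining knockout cells and 435 CPM in the remaining control cells. Reg3b averaged 129 CPM in Cela1-dominant cells and 15.2 CPM in the remaining knockout cells, and 1 cell gave 25.6% of the UMIs of the Cela1-dominant set. With Cela1 required to exceed 2 times the other elastases, the ratio was 9.36 for Reg1, 8.35 for Reg3g and 5.41 for Reg2. Reg3a, Reg3b, Reg3d and Reg3g resemble each other in sequence, so reads may have been split among them.

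Among proteases the trypsin and chymotrypsin genes parted into genes that were higher and genes that were lower. Of 13 measured genes of the protease list, 6 were at least 2-fold higher in Cela1-dominant knockout cells and 2 at most 0.5-fold. Over all compared genes these shares were 7.65% and 1.71%. The list also holds 2 tissue kallikreins, Klk1 at a ratio of 1.29 and Klk1b5 at 9.60, and Klk1b5 is among the 6. Prss3 averaged 5719 CPM in Cela1-dominant cells, 772 CPM in the remaining knockout cells and 2439 CPM in the remaining control cells. Its ratio was thus 7.41 (7.04 to 7.80) within the knockout library and 2.34 (2.23 to 2.46) against the control cells. The remaining knockout cells themselves stood 3.16-fold below the remaining control ones. Ctrl, a chymotrypsin-like protease, averaged 364 CPM in Cela1-dominant cells, 42.6 CPM in the remaining knockout cells and 39.2 CPM in the remaining control cells. The remaining knockout cells had 1.09 times the Ctrl level of the remaining control cells (0.697 to 1.74), an interval that holds 1. Try4, a trypsinogen, averaged 4852 CPM in Cela1-dominant cells, 1430 CPM in the remaining knockout cells and 653 CPM in the remaining control cells. Gm5771, another trypsinogen-like gene, averaged 1938 CPM in Cela1-dominant cells, 428 CPM in the remaining knockout cells and 461 CPM in the remaining control cells. Try5, Try10 and Prss1 were higher by less than 2-fold, at ratios of 1.77, 1.93 and 1.80. Prss2, an anionic trypsinogen, was 3.58-fold lower (3.49 to 3.68), with 1949 CPM in Cela1-dominant cells and 6984 CPM in the remaining knockout cells. Ctrb1, chymotrypsinogen B, was the most abundant enzyme transcript of both sets and was 2.09-fold lower, at 40996 CPM in Cela1-dominant cells and 85560 CPM in the remaining ones. The trypsinogen genes of chromosome 6 are near copies of each other, so how the counting divided reads among them is uncertain.

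Ctrc, chymotrypsin C, differed between libraries more than between sets. It stood at 723 CPM in Cela1-dominant knockout cells, 440 CPM in the remaining knockout cells and 5.81 CPM in the remaining control cells. Its annotated gene spans that of Cela2a on the same strand, so the reads of these 2 genes may be confused.

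**Figure D2:**
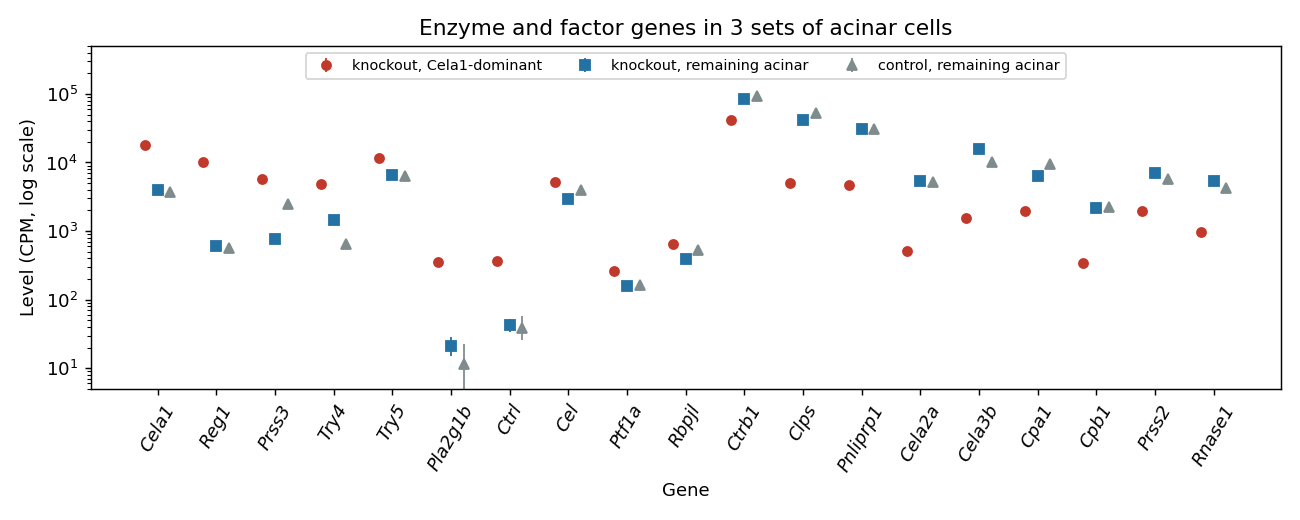
Level in CPM (log scale) of 19 enzyme, Reg and factor genes in Cela1-dominant knockout cells (red circles), the remaining knockout acinar cells (blue squares) and the remaining control acinar cells (grey triangles), with exact Poisson intervals of the summed UMIs. Blue and grey points lie close together for most genes, and the red ones lie apart, such as Reg1 at 10194 CPM in Cela1-dominant knockout cells against 606 CPM in remaining knockout and 570 CPM in remaining control cells.

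Lipid-digesting enzymes stood far apart in both directions. Pla2g1b, the secreted pancreatic phospholipase A2, averaged 348 CPM in Cela1-dominant knockout cells, 20.8 CPM in the remaining knockout cells and 11.6 CPM in the remaining control cells. The ratio within the knockout library was 16.7 (12.3 to 23.4), and 69.2% of Cela1-dominant cells held a Pla2g1b UMI, against 9.60% of the remaining knockout cells and 0.780% of mesenchymal barcodes. Clps, colipase, the cofactor that anchors pancreatic lipase to fat droplets, averaged 5008 CPM in Cela1-dominant knockout cells, 41264 CPM in the remaining knockout cells and 52365 CPM in the remaining control cells, and was 8.24-fold lower (8.12 to 8.36) within the knockout library. Pnliprp1, a lipase-related protein, was 6.53-fold lower (6.43 to 6.63), at 4744 CPM in Cela1-dominant cells and 30976 CPM in the remaining knockout cells. Cel, carboxyl ester lipase, was higher by 1.78-fold and Pnliprp2 was lower by 1.12-fold. Of 6 measured lipase genes, 1 was at least 2-fold higher and 2 were at most 0.5-fold, beside 7.65% and 1.71% of all compared genes. Together the lipase genes took 1.56% of UMIs in Cela1-dominant cells and 7.56% in the remaining ones.

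Carboxypeptidases and nucleases were low in Cela1-dominant cells. Cpb1, carboxypeptidase B1, averaged 346 CPM in Cela1-dominant knockout cells and 2192 CPM in the remaining knockout cells, 6.34-fold lower (5.99 to 6.71). Rnase1, the pancreatic ribonuclease, was 5.40-fold lower (5.22 to 5.59) and Cpa1 was 3.22-fold lower (3.14 to 3.31). The amylase genes split, with Amy1 at 190 CPM in Cela1-dominant cells and 110 CPM in the remaining ones, and Amy2a5 at 132 CPM in Cela1-dominant cells and 253 CPM in the remaining ones. In all, 3 of 6 measured genes of this list were at most 0.5-fold and none was at least 2-fold higher. In the zymogen granule list, 2 of 14 were at least 2-fold higher and 1 was at most 0.5-fold. Over all compared genes 7.65% were at least 2-fold higher and 1.71% at most 0.5-fold. In the granule list Dmbt1, a granule and mucosal glycoprotein, had a ratio of 2.07 (1.63 to 2.66). Try4 is the other higher gene and was named above, and Pdia2, a pancreatic disulfide isomerase, was 2.43-fold lower. With enzyme and Reg genes out of the totals, only Try4 of the 14 stays at least 2-fold higher.

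Transcription factors of the acinar state differed much less than the enzymes. Ptf1a averaged 263 CPM in Cela1-dominant knockout cells, 159 CPM in the remaining knockout cells and 163 CPM in the remaining control cells, a ratio of 1.65 (1.46 to 1.88) within the knockout library. Rbpjl averaged 650 CPM in Cela1-dominant knockout cells, 394 CPM in the remaining knockout cells and 529 CPM in the remaining control cells, with ratios of 1.65 (1.53 to 1.79) over the remaining knockout cells and 1.23 (1.10 to 1.37) over the remaining control cells. The per-cell quartile ranges of Rbpjl, 256 to 841 CPM in Cela1-dominant cells and 156 to 520 CPM in the remaining knockout cells, overlapped. Bhlha15, which builds the secretory apparatus, had a ratio of 1.58 (1.34 to 1.86), Gata4 1.84 (1.24 to 2.83) and Nr5a2 1.25 (1.04 to 1.50). None of 15 measured factors was at least 2-fold higher or at most 0.5-fold, beside 7.65% and 1.71% of all compared genes. Their median log2 ratio was 0.51 against 0.28 for all genes. When enzyme and Reg genes are left out of the totals, the median of all genes becomes 0.11 and that of the factors 0.35, and 4.85% of all genes are at least 2-fold higher and 2.47% at most 0.5-fold. Of the progenitor and trunk factors, 1 of 7 was at least 2-fold higher, beside 7.65% of all compared genes. It was Etv5, an FGF-responsive factor, with 34.9 CPM in Cela1-dominant cells and 15.7 CPM in the remaining ones. With enzyme and Reg genes out of the totals its ratio is 1.98, under 2-fold.

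Sorting the 678 knockout acinar cells by their Cela1 share showed where the other genes changed. Reg1 stood at 264 CPM in the 69 cells under 10% and 3188 CPM in the 10 cells from 40 to 50%. Among Cela1-dominant cells it stood at 3145 CPM from 50 to 60%, 8849 CPM in the 21 cells from 60 to 70%, and 10358 CPM in the 207 cells at 90% or more. Clps ran from 44326 CPM in the lowest class to 31434 CPM from 40 to 50%, 12233 CPM from 60 to 70%, and 3326 CPM in the highest class. Prss3 held between 642 and 822 CPM below 40%, and stood at 2315 CPM from 40 to 50%. It was only 956 CPM from 50 to 60%, just inside the threshold, then 3808 CPM from 60 to 70% and 6155 CPM at 90% or more. Pla2g1b was at 8.46 CPM in the lowest class and 370 CPM in the highest. Ptf1a was at 116 CPM in the lowest class and 278 CPM in the highest. The classes from 30 to 60% hold 12, 10 and 16 cells, and their values are those of few cells. Depth also differed between classes. The median was 6954.5 UMIs from 40 to 50%, 2431.5 from 50 to 60%, 3834 from 60 to 70% and 12986 at 90% or more. The part of depth in these changes was not tested.

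**Figure D3:**
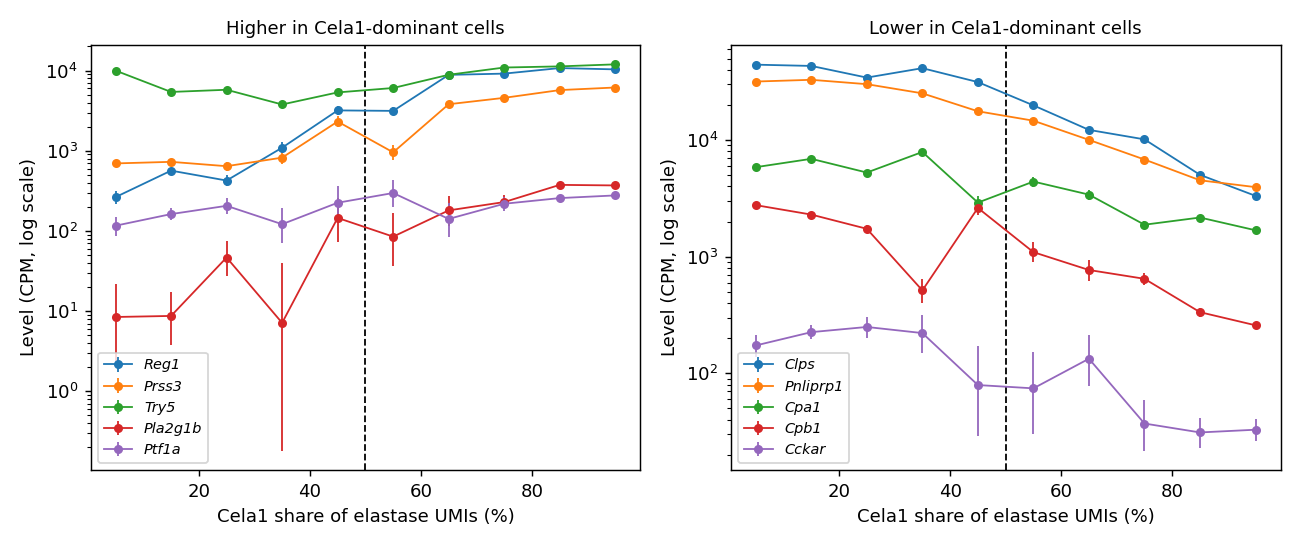
Level in CPM (log scale) of 10 genes, with Poisson intervals, in knockout acinar cells sorted into 10 classes of the Cela1 share of elastase UMIs (horizontal axis, percent). Cela1-dominant cells lie right of the dashed line; Reg1 is at 264 CPM in the lowest class and 10358 CPM in the highest, and Clps at 44326 and 3326 CPM.

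The Cela1-dominant cells varied among themselves. In the 309 cells with at least 5000 UMIs, each thinned to 5000, Cela1 had a median of 86 UMIs and quartiles of 56 and 126. Reg1 had a median of 41 (quartiles 21 and 73), Prss3 18 (8 and 37), Clps 11 (6 and 28) and Try5 33 (13 and 66). Cela1 went with Cel (Spearman rho 0.62 over 309 cells) and Prss3 (0.60), and less with Reg1 (0.48) and Ctrb1 (0.32). It had rho 0.09 with Clps, 0.07 with Ptf1a and 0.07 with Rbpjl. Cells of 1 library share its depth and free RNA, so these values describe and test nothing.

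Beyond enzymes, the genes furthest apart by the interval bound nearest to 1 included several unlike secreted and metabolic genes. Ckm, the muscle form of creatine kinase, had 409 UMIs in Cela1-dominant knockout cells and 3 in the remaining knockout cells, a ratio of 53.9 (18.3 to 262), which was 7.28 after cells were thinned to 2000 UMIs. It was found in 22.4% of Cela1-dominant cells, 1.20% of the remaining ones and no mesenchymal barcode of 641, and no single cell gave more than 8.31% of its UMIs. Serpina16, a serpin, had 230 UMIs in Cela1-dominant cells and 3 in the remaining knockout cells. Dct, the melanin enzyme dopachrome tautomerase, had 396 in Cela1-dominant cells and 10 in the remaining ones, and Gstm6, a glutathione transferase, 345 in Cela1-dominant cells and 11 in the remaining ones. Lgals2, galectin 2, averaged 128 CPM in Cela1-dominant cells and 11.2 CPM in the remaining ones, a ratio of 11.4 (7.49 to 18.4). Klk1b4, a tissue kallikrein with near copies at its locus, averaged 148 CPM in Cela1-dominant cells and 15.2 CPM in the remaining ones. The level was also low in the remaining control cells for 3 of these genes: Lgals2 at 10.2 CPM, Dct at 10.2 CPM and Ckm at 5.81 CPM.

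**Figure D4:**
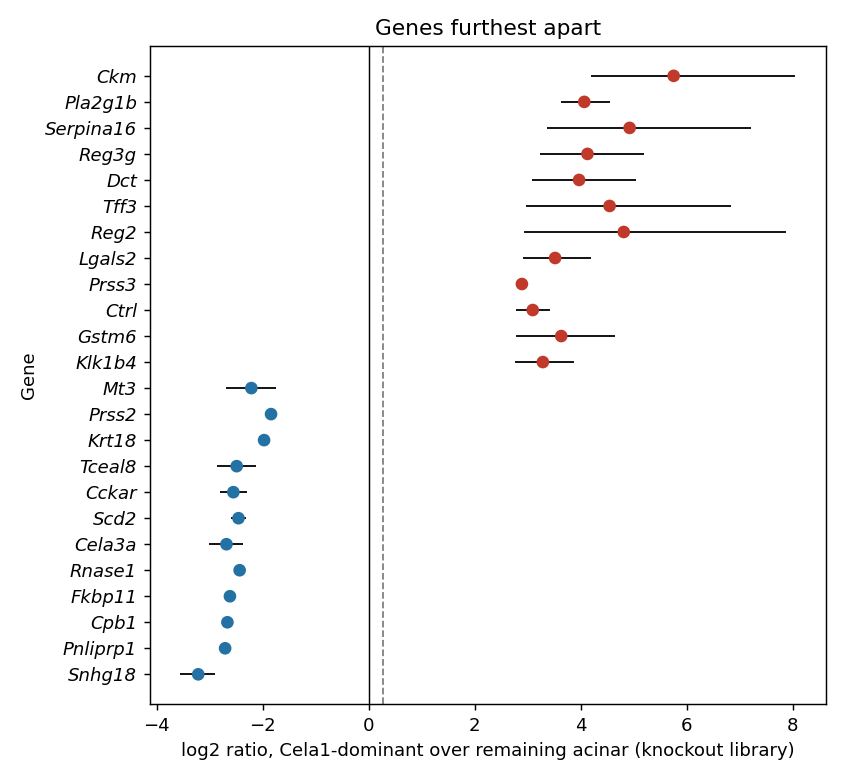
Ratio on a log2 scale, with exact intervals, of the 12 genes furthest above and the 12 furthest below 1 in Cela1-dominant over the remaining acinar cells of the knockout library, leaving out the genes the choice of cells used. The dashed line is the median of all genes at 0.28; Ckm is at 53.9-fold (7.28-fold after thinning to 2000 UMIs) and Snhg18 is 9.28-fold lower.

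On the low side, Cckar, the receptor through which cholecystokinin triggers enzyme release, averaged 36.1 CPM in Cela1-dominant knockout cells, 212 CPM in the remaining knockout cells and 247 CPM in the remaining control cells. It was 5.86-fold lower (4.91 to 7.02) within the knockout library. Snhg18, a small nucleolar RNA host transcript, was 9.28-fold lower (7.41 to 11.7) and Fkbp11, a peptidyl-prolyl isomerase of the secretory pathway, 6.13-fold lower (5.73 to 6.57). Fkbp11 stood at 235 CPM in Cela1-dominant cells, 1441 CPM in the remaining knockout cells and 1339 CPM in the remaining control cells. Krt18, an epithelial keratin, was 3.92-fold lower, Mt3, a metallothionein, 4.63-fold lower, and Tceal8, an X-linked elongation factor relative, 5.61-fold lower. As a mean of per-cell shares the Tceal8 ratio was 0.424. In the signalling list, Cckar was the only 1 of 7 measured genes at most 0.5-fold, beside 1.71% of all compared genes. Ttr, transthyretin, had a ratio of 2.41 (2.26 to 2.56) and Itpr2, an inositol trisphosphate receptor, 2.69 (1.82 to 4.08).

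Most genes of the secretory machinery were lower by a small amount. Of 38 endoplasmic reticulum folding and translocation genes, 32 were below 1 and 6 above, with a median log2 ratio of -0.32, while 1283 of all 4787 compared genes were below 1 and 3504 above. Hspa5, the chaperone BiP, averaged 592 CPM in Cela1-dominant knockout cells and 937 CPM in the remaining knockout cells, and Hsp90b1, another chaperone, 435 CPM in Cela1-dominant cells and 882 CPM in the remaining ones. Only Hsp90b1 was at most 0.5-fold. Of 18 stress response genes, 2 were at most 0.5-fold, Derl3 at 3.38-fold lower and Psat1 at 2.06-fold lower, beside 1.71% of all compared genes. Ppp1r15a alone was at least 2-fold higher, at a ratio of 2.01, beside 7.65% of all compared genes. With enzyme and Reg genes left out of the totals, the median of the folding genes is -0.49. None of the 18 stress response genes is then at least 2-fold higher.

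Of 12 measured genes of sterol and fatty acid synthesis, 11 had a ratio below 1, 7 of them with an interval below 1, and the median log2 ratio was -0.85. Among all 4787 compared genes, 1283 had a ratio below 1. Scd2, a stearoyl-CoA desaturase, averaged 126 CPM in Cela1-dominant knockout cells, 688 CPM in the remaining knockout cells and 949 CPM in the remaining control cells. Tmem97, a sterol-regulated membrane protein, averaged 175 CPM in Cela1-dominant knockout cells, 601 CPM in the remaining knockout cells and 715 CPM in the remaining control cells. Acly was the 1 measured gene above 1. The remaining knockout cells stood below the control ones for this list too, with a median log2 ratio of -1.11 among its 9 genes with at least 100 UMIs. Of 32 respiratory chain genes 29 stood above 1, with a median log2 ratio of 0.36, beside 3504 of 4787 for all genes. Ribosomal protein genes had a median of 0.17, and both medians lay near the 0.28 of all genes. With enzyme and Reg genes out of the totals the ribosomal median is 0.00.

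The retinoid and xenobiotic list had 4 of 12 genes at least 2-fold higher and 1 at most 0.5-fold. Over all compared genes these shares were 7.65% and 1.71%, which also stand beside the lists that follow. Rbp2, a cellular retinol-binding protein, averaged 245 CPM in Cela1-dominant knockout cells, 47.7 CPM in the remaining knockout cells and 24.7 CPM in the remaining control cells. Aldh1b1, an aldehyde dehydrogenase of pancreatic progenitors, had a ratio of 2.77. Of 13 imprinted growth genes, 4 were at least 2-fold higher and none at most 0.5-fold. H19 averaged 3258 CPM in Cela1-dominant cells, 1064 CPM in the remaining knockout cells and 687 CPM in the remaining control cells. Cdkn1c, a cell cycle inhibitor, had a ratio of 3.43, Igf2 of 2.69 and Meg3 of 2.59 (2.45 to 2.74). Among 7 interferon and antigen presentation genes, 3 were at most 0.5-fold: H2-K1, H2-D1 and Ifitm3, the last at 202 CPM in Cela1-dominant cells and 604 CPM in the remaining ones. Ductal genes were mixed: Tm4sf4 was at least 2-fold higher, and 4 of 16 measured were at most 0.5-fold, namely Krt7, Krt18, Krt19 and Cldn7. None of 10 measured COMPASS subunit genes was past 2-fold in either direction. At the shares over all genes a list of 10 would hold few such genes, so their absence says little about the list.

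**Figure D5:**
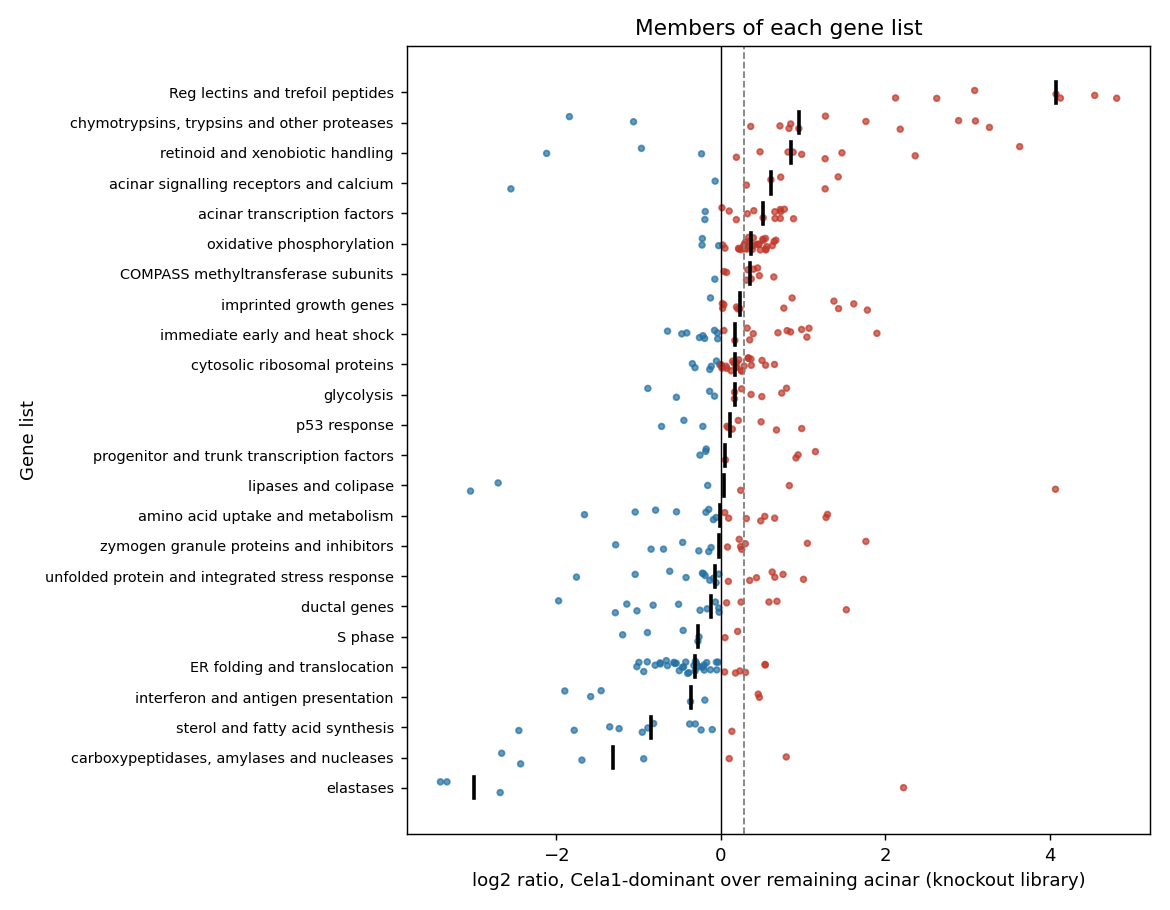
Each point is a gene of a list (vertical axis) at its log2 ratio in Cela1-dominant over the remaining acinar cells of the knockout library (horizontal axis), red above and blue below 0. Black bars are list medians and the dashed line is the median of all genes at 0.28; Reg and trefoil genes lie at a median of 4.07, and sterol and fatty acid genes at -0.85.

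The lists above were compared between cells of 1 library, and the same sets were placed beside control cells. Against the remaining control acinar cells, 523 of 4258 genes were at least 2-fold higher in Cela1-dominant knockout cells (12.3%) and 80 were at most 0.5-fold (1.88%). The remaining knockout acinar cells and the remaining control ones, by contrast, had 24 of 2028 genes at least 2-fold higher (1.18%) and 20 at most 0.5-fold (0.986%). These comparisons share cell sets, and they differ in how many UMIs stand behind them. Reg1 had a ratio of 17.9 (16.2 to 19.8) in Cela1-dominant knockout over remaining control cells and 1.06 (0.947 to 1.19) in remaining knockout over remaining control cells. Reg3b had no UMI in the remaining control cells, so its level in Cela1-dominant cells was at least 29.6-fold higher with a floor of 3 counts for the set, and Reg3g was at least 20.3-fold higher.

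The same mix appeared in cycling acinar cells, which the choice of cells had set aside. Cela1 outnumbered Cela2a and Cela3b in 54 of 121 cycling acinar cells of the knockout library (44.6%, 35.6 to 53.9%) and in 4 of 19 in the control library (21.1%, 6.05 to 45.6%). Between Cela1-dominant and other cycling knockout cells, Reg1 had a ratio of 26.6 (23.2 to 30.8), Pla2g1b 20.9 (11.8 to 40.9) and Prss3 7.65 (6.77 to 8.67). Ptf1a had a ratio of 1.61 (1.30 to 2.02) there. Over 2031 genes with 100 UMIs in these cells, 75 were at least 2-fold higher (3.69%) and 37 at most 0.5-fold (1.82%). Cycling cells were 11.2% of all Cela1-dominant knockout acinar cells (54 of 482, 8.53 to 14.4%) and 21.1% of the others (67 of 317, 16.8 to 26.0%). In the control library they were 33.3% of Cela1-dominant acinar cells (4 of 12, 9.92 to 65.1%) and 15.2% of the others (15 of 99, 8.74 to 23.8%). The cycling threshold is an absolute number of UMIs, which a deeper cell reaches more easily.

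The 8 control cells met the rule, but their summed UMIs did not show the rest of the mix. Cela1 averaged 2289 CPM in them and 3666 CPM in the remaining control acinar cells, a ratio below 1, and their high Cela1 share came with low Cela2a, at 659 CPM against 5243 CPM, and low Cela3b, at 718 CPM against 10088 CPM. Reg1 averaged 233 CPM in the 8 cells and 570 CPM in the remaining control cells, and Prss3 223 CPM in the 8 cells and 2439 CPM in the remaining control cells. Pla2g1b, Ctrl, Reg3b and Reg3g had no UMI in the 8 cells. Clps stood at 28170 CPM in the 8 control cells, against 5008 CPM in Cela1-dominant knockout cells, and Cpa1 at 12577 CPM in the 8 control cells, against 1945 CPM in Cela1-dominant knockout cells. The values of these 8 cells are those of few cells, and 2 of them held fewer than 10 elastase UMIs. The deepest of the 8 held 40444 UMIs beside a median of 9721.5, so it weighs heavily in the summed values.

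Cells with at least 5000 UMIs, a restriction chosen after seeing the data, gave close to the same ratios. Reg1 was 17.9 times as high in the 309 Cela1-dominant knockout cells as in the 149 remaining knockout cells, Prss3 7.29 times and Pla2g1b 15.9 times. Of 4494 genes with 100 UMIs in those cells, 357 were at least 2-fold higher (7.94%) and 92 at most 0.5-fold (2.05%).

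The authors' deposited table of cluster genes was set beside these values. In the authors' deposited table, Cela1, Reg1, Ptf1a, Rbpjl and Pla2g1b are listed for cluster 2, and Cela2a and Cela3b for cluster 11. For cluster 2 the authors' deposited table lists 261 genes, of which 202 had 100 UMIs here and 45 were at least 2-fold higher in Cela1-dominant knockout cells, 22.3% of those compared and 12.3% of all genes that high, beside 7.65% over all compared genes. Of the 29 genes that the authors' deposited table lists for cluster 11, 20 were compared, of which none was at least 2-fold higher and 6 were at most 0.5-fold, beside 1.71% over all compared genes. Other clusters of the authors' deposited table held such genes too: 6 of 21 compared genes of cluster 6 and 2 of 6 of cluster 13 were at least 2-fold higher, and 20 of 146 of cluster 8 were at most 0.5-fold. No file links cells to those clusters, and both the table and the present levels come from the same libraries.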

How the data were processed

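Transcripts were counted in 1 knockout and 1 control library (10x 3′ v2 kit, per the labels' protocols). The matrices hold UMI counts, which the authors made with Cell Ranger 3.0.0, per the file headers. The submitters' processing notes also give Seurat (2 and 3), GRCm38 and mm10. Aligner, intron handling and cell calling: not given in the sources used here. A score (an average log fold change) and a p-value in the authors' deposited cluster table were computed by the authors over cells, and only its gene names and clusters were used here.

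Cells were chosen by the stated thresholds, UMIs were summed per set, divided by the set's total (CPM) and compared as ratios with exact conditional binomial intervals. Fold counts use genes with at least 100 UMIs over both sets. Shares have Clopper-Pearson intervals and sums exact Poisson intervals, all at the 95% level. Named genes are the 12 furthest above and below 1 by the interval bound nearest to 1. They leave out the genes of the rule, haemoglobin, mitochondrial, ribosomal and Y-linked genes, Xist, Tsix, Gm and Rik genes and genes over 5 times higher in another cell class, with members of fixed lists added by number of UMIs and ratio. The cells, gene lists and rules were chosen with earlier results of these data known, and genes named in the closing section were picked after their values were seen. Doublets were kept: Scrublet marked 24 knockout barcodes (3 Cela1-dominant, 2 remaining acinar) and 22 control barcodes, and their removal was an alternative. Other alternatives varied the filters, dominance, totals, depth, weighting and free RNA; the free RNA alternative changed only the choice of cells. Simulated knockout counts for 4796 genes, 200 of them changed 4-fold, gave 24 of 24 named genes as changed and 96.2% of unchanged genes inside their interval. The simulated counts were drawn with counting error only, which is what the intervals assume. The simulation thus checks the calculation and not the spread between cells. Promoter windows are from RefSeq, GRCm38.p6; gene positions are from GENCODE on GRCm38. Scripts ran in Python 3.11.15 with scanpy 1.11.5, pandas 2.3.3, SciPy 1.17.1, NumPy 2.4.6 and matplotlib 3.10.9.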

Additional observations from a re-analysis of the deposited data

Results flagged for a closer look

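Of 33 genes followed under the alternatives, 5 had a ratio of Cela1-dominant to remaining acinar cells on the other side of 1 in the control library than in the knockout library, with both intervals clear of 1. Of the listed proteases, some of which are among those 33, 11 of 13 were above 1 in the knockout library, beside 3504 of 4787 compared genes. In the control library 10 of 10 measured proteases were below 1, beside 226 of 693 compared genes. Prss2 and Ctrb1 were the proteases below 1 in the knockout library. For Cela1 the ratio was 4.66 in the knockout library and 0.624 in the control library, and for Reg1 it was 16.8 in the knockout library and 0.408 in the control library. For Prss3 it was 7.41 in the knockout library and 0.0915 in the control library, and for Cpa1 0.310 in the knockout library and 1.33 in the control library. For Ctrl it was 8.54 in the knockout library and 0 in the control library, from no UMI in the 8 Cela1-dominant control cells against 27 in the remaining control ones. These differences were not tested, and the control values rest on 8 cells. Barcodes with under 500 genes were left out of every comparison, and 39 of the 57 such barcodes of the knockout library that met the other criteria were Cela1-dominant (68.4%, 54.8 to 80.1%). Of 2 such barcodes in the control library none was, which allows a share of up to 84.2%. Their median depth was 772 UMIs in the knockout library, and 17 of the 39 held at least 10 elastase UMIs.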

How the results depend on the processing

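The share of Cela1-dominant cells among non-cycling acinar cells of the knockout library was 56.1% with at least 5% of UMIs from the enzymes, 58.6% with Cela1 over 2 times the other elastases and 67.5% with at least 5000 UMIs per cell, the last chosen after seeing the data. The control library then held 5 such cells with the 5% criterion, 4 with the 2-times criterion, 5 with at least 5000 UMIs, and 3 with a hormone share under 0.1%. Genes at least 2-fold higher numbered 209 of 3035 when cells were chosen on a part of their UMIs and levels taken from the rest. They numbered 232 of 4787 with totals without enzyme and Reg genes and 81 of 1259 with cells thinned to 2000 UMIs. With a minimum of 20 UMIs they numbered 1294 of 9578 and, chosen after seeing the data, 207 of 3669 with a minimum mean of 20 CPM. The main comparison had 366 of 4787. Genes at most 0.5-fold numbered 26 of 1259 with thinning and 262 of 9578 with the minimum of 20 UMIs, beside 82 of 4787. Thinning, the choice on a part of the UMIs and the minimums change how many genes are compared. Of 460 gene ratios (33 genes under 14 alternatives, without Serpina16 and Tff3 under thinning, where the remaining cells had no UMI), 460 stayed on the same side of 1, and of 432 past 2-fold 430 stayed past it, while 110 lay outside the counting interval of the reported ratio. Over these alternatives the ratio ran between 7.28 and 66.5 for Ckm, 5.41 and 36.1 for Reg2, 9.36 and 19.9 for Reg1, 8.35 and 32.3 for Reg3g, 8.23 and 25.6 for Lgals2, and 0.135 and 0.424 for Tceal8. No paired analysis was possible because each group is 1 library. Depth limits genes near the 3-count floor.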

Other observations

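Genes mostly outside the lists also stood apart in Cela1-dominant knockout cells, and they were picked after their values were seen. Of the Klk1b genes summed here, Klk1b5 was already counted in the protease list and Klk1b4 was named above. Summed over the 13 Klk1b tissue kallikrein genes in the files, Klk1b transcripts averaged 882 CPM in Cela1-dominant knockout cells, 166 CPM in the remaining knockout acinar cells and 154 CPM in the remaining control ones, a ratio of 5.31 (4.75 to 5.96) within the knockout library. The 9 with at least 100 UMIs had ratios between 2.17 and 14.2, and a gene that is high in the deeper Cela1-dominant set passes that minimum more easily. These genes are near copies, so reads may have been split among them.

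Single genes of unlike function stood apart as well. Acta1, skeletal muscle actin, averaged 51.1 CPM in Cela1-dominant knockout cells and 5.58 CPM in the remaining knockout cells, and had no UMI in the remaining control cells. Cox7a1, the muscle form of a respiratory chain subunit, averaged 82.2 CPM in Cela1-dominant cells and 13.7 CPM in the remaining knockout cells. Gal, the neuropeptide galanin, averaged 254 CPM in Cela1-dominant cells and 40.1 CPM in the remaining knockout cells. Cpe, a carboxypeptidase of endocrine granules, averaged 189 CPM in Cela1-dominant cells and 36.5 CPM in the remaining knockout cells. Ambp, a plasma protein precursor, averaged 453 CPM in Cela1-dominant knockout cells and 89.3 CPM in the remaining knockout cells, with 177 CPM in the remaining control cells. Ccnd1, cyclin D1, averaged 24.7 CPM in Cela1-dominant knockout cells, 80.7 CPM in the remaining knockout cells and 79.9 CPM in the remaining control cells.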
